A study of Arabidopsis thaliana with 18 samples.

Results

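GRX480, MSRB5 and MSRB9 are redox genes of Arabidopsis thaliana whose transcripts were measured on ATH1 arrays of the accession Mt-0. They are 3 of the 13356 genes that a probe set of exactly 1 gene represented. They were chosen from measured values, as redox genes whose difference between SA and silwet had opposite signs. The values behind that choice were taken to be those of serial set 1, so all values of these genes in that set are a description without a test. All 3 passed the filter on dim probe sets, and each was read by a single probe set, 261443_at for GRX480 (AT1G28480), 254387_at for MSRB9 (AT4G21850) and 255302_at for MSRB5 (AT4G04830).

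The study comprised 9 arrays of plants that received SA at 0.30 mM together with 0.02% silwet, and 9 arrays of plants that received 0.02% silwet alone. SA was taken to stand for the defence hormone salicylic acid. Silwet is a surfactant that served as carrier, and both groups received it. The titles give replicate numbers 1 to 3 and serial numbers. Each run of 3 consecutive serial numbers holds replicates 1, 2 and 3, which gave 3 serial sets per treatment with 3 arrays in each. The labels used here do not state what the sets are, nor tissue, plant age or harvest time, nor whether arrays came from separately grown plants. The p-values therefore reflect only how much these arrays varied, and some of that variation may be technical.

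Glutaredoxins are small proteins that use glutathione to reduce disulfides or to pass redox signals to other proteins. GRX480, also called ROXY19, belongs to the plant-specific CC-type class and binds TGA transcription factors, through which salicylic acid and its co-activator NPR1 act on defence genes. In overexpressing Arabidopsis plants it lowers the transcript of the jasmonate-responsive defensin PDF1.2. Methionine sulfoxide reductases repair oxidised methionine in proteins. The A type reduces the S form of methionine sulfoxide and the B type, to which MSRB5 and MSRB9 belong, the R form, and most of them are recharged by thioredoxins.

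The SA arrays of set 1 stood apart from the rest across the whole transcriptome. On the first principal component, with 45.0% of the variance, they lay between 52.8 and 67.7 and the other 15 arrays between -38.1 and 24.1. The log2 ratio of 3′ to 5′ ubiquitin control signal was 0.706 to 1.12 on these 3 arrays and 1.15 to 1.81 on the other 15, and its part in the results below was not tested. Median signal was 29.6 to 34.8 on the 3 arrays and 27.5 to 37.3 on the others. Of 10 leaf photosynthesis markers 3 were named, and their summed signal was 4968 to 7454 in SA of set 1 and 6065 to 13137 elsewhere. Of 7 root markers 2 were named, with a summed signal of 140 to 178 against 47.8 to 240. No seed or flower marker was named.

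GRX480, the TGA-binding glutaredoxin, was high in SA of set 1 and in no other condition. Its signals there were 1105, 433 and 500 in replicates 1, 2 and 3, against 74.9, 63.3 and 181 on the silwet arrays of the set. All 3 SA arrays lay above every other array of the series, of which the highest, at 181, was silwet replicate 3 of the same set. On the log2(signal + 16) scale the SA arrays averaged 9.32 ± 0.71 and the silwet arrays 6.81 ± 0.71 (SD over 3 arrays). GRX480 thus differed by 2.50 ± 0.42 (SE), or 5.67-fold on that scale. Fold changes on this scale understate those of dim transcripts. In these whole-sample extracts, more RNA per cell and more cells with the transcript cannot be told apart.

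**Figure D1:**
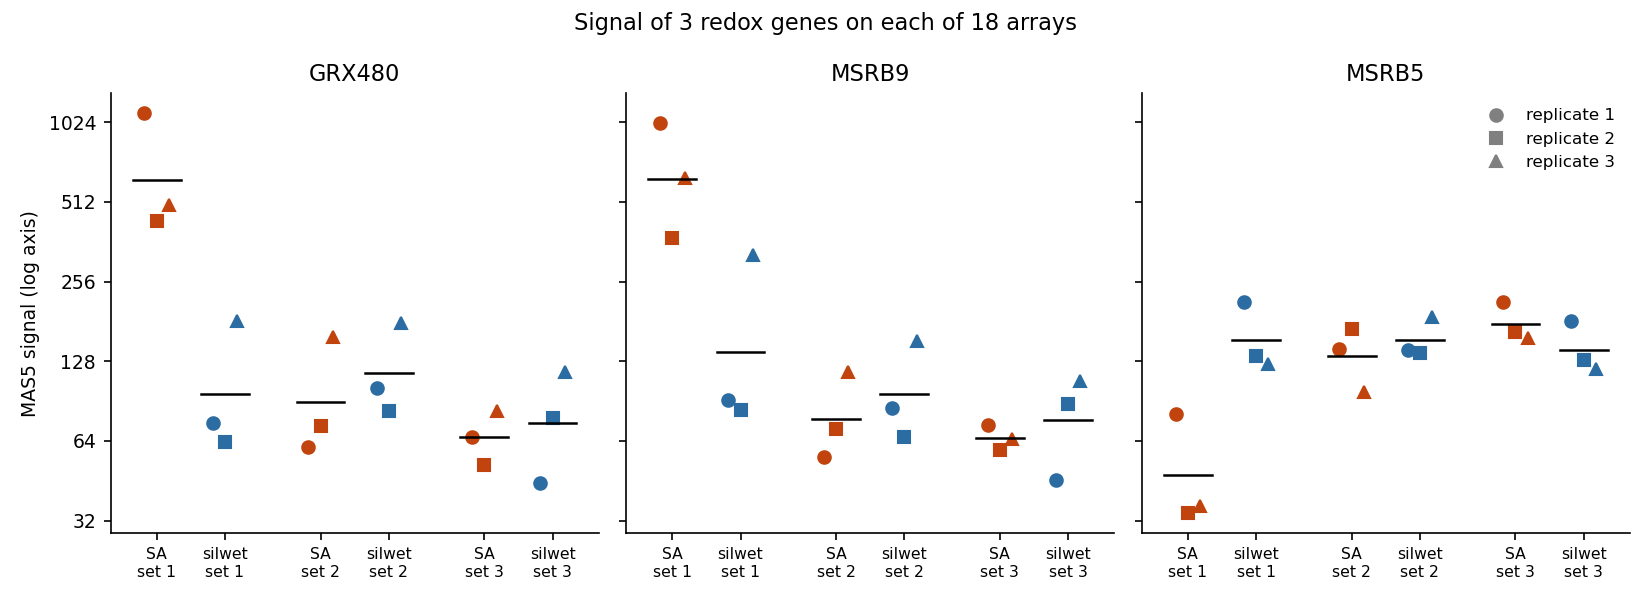
MAS5 signal on a log axis for GRX480, MSRB9 and MSRB5 on each of the 18 arrays, with SA in red and silwet in blue for serial sets 1 to 3. Symbols mark replicate numbers and bars the mean of the log2 values of the 3 arrays. GRX480 and MSRB9 are highest, and MSRB5 lowest, on the 3 SA arrays of set 1.

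MSRB9, a B-type methionine sulfoxide reductase, had almost the same profile. Its signals in set 1 were 1021, 374 and 632 on the SA arrays and 91.8, 84.0 and 324 on the silwet arrays. The groups did not overlap, but silwet replicate 3 lay nearer to the lowest SA array than to the other silwet arrays. MSRB9 averaged 9.32 ± 0.71 on the SA arrays and 7.27 ± 0.99 on the silwet arrays (SD over 3 arrays), and differed by 2.05 ± 0.44 (SE), or 4.15-fold. Without silwet replicate 3 of set 1 the difference was 2.62.

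MSRB5, a second B-type reductase, went the other way. Its signals in set 1 were 81.1, 34.3 and 36.5 on the SA arrays and 215, 134 and 125 on the silwet arrays. All 3 SA arrays lay below every other array of the series, of which the lowest was at 97.8. MSRB5 averaged 5.99 ± 0.53 on the SA arrays and 7.41 ± 0.39 on the silwet arrays (SD over 3 arrays), and differed by -1.42 ± 0.27 (SE), or 0.374-fold. The SA signals of 34.3 and 36.5 lay within the range of array medians. The size of the difference varied with the added constant, with -1.69 at a pseudocount of 1 and -0.955 at a pseudocount of 64.

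Among 13648 tested probe sets, GRX480 had the 48th highest difference in set 1 and MSRB9 the 99th highest, while MSRB5 had the 39th lowest. In that contrast 12.8% of probe sets were called by limma at an adjusted p under 0.05, made up of 6.8% of all tested probe sets that were higher and 6.04% that were lower. As the contrast chose the members, their place in it is not evidence.

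The same-numbered SA and silwet arrays of set 1 differed in the same direction in every pair for all 3 genes. These pairs make up the contrast that chose the genes, so this is a description. The share of all probe sets with such pairs, or without overlap between the groups of set 1, was not counted. For GRX480 the pair differences were 3.63, 2.50 and 1.39 in replicates 1, 2 and 3, and for MSRB9 they were 3.27, 1.96 and 0.93. For both genes the pair of replicate 3 differed least, and its silwet array was the highest silwet array of the set. For MSRB5 the pair differences were much closer together, at -1.25, -1.58 and -1.42.

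**Figure D2:**
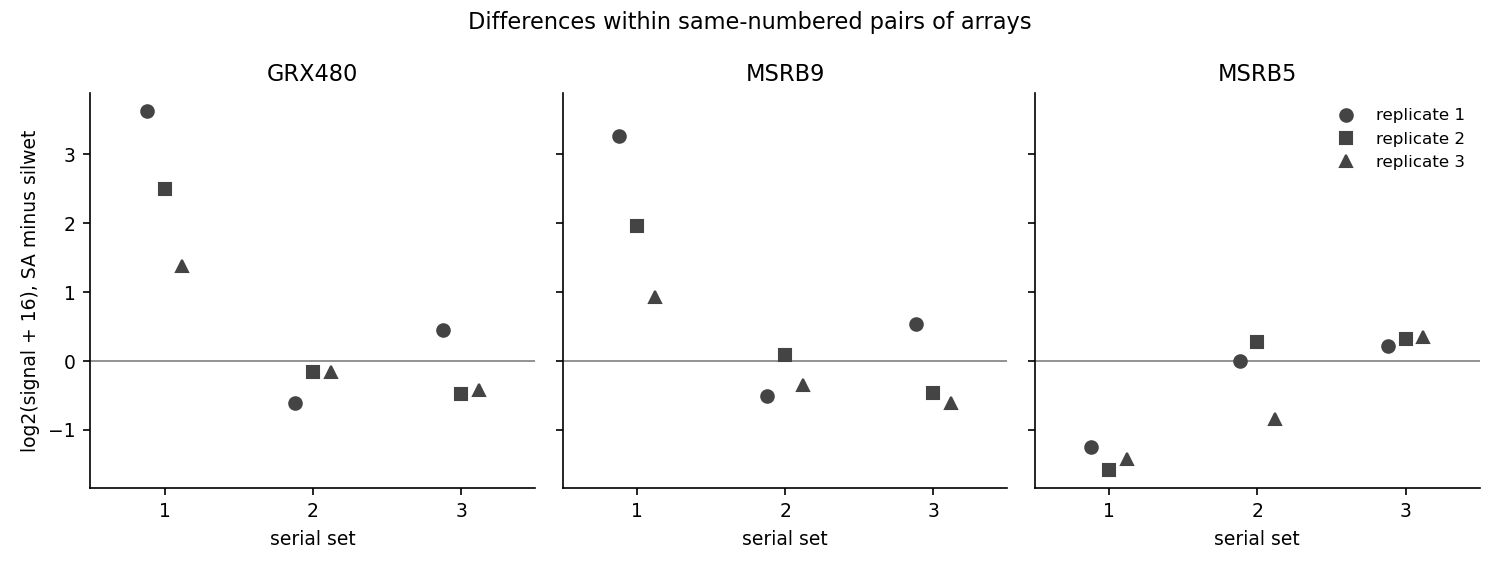
Difference in log2(signal + 16), SA minus silwet, within each same-numbered pair of arrays, by serial set, for GRX480, MSRB9 and MSRB5. In set 1 all pairs of GRX480 and MSRB9 lie above 0 and all pairs of MSRB5 below it. In sets 2 and 3 the pairs of GRX480 and MSRB9 lie between -0.62 and 0.54, and those of MSRB5 between -0.84 and 0.35.

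In sets 2 and 3, which were taken to have had no part in the choice, none of the 3 genes passed the test. GRX480 had signals of 60.5, 72.6 and 158 on the SA arrays of set 2, against 101, 82.9 and 179 on its silwet arrays. In set 3 GRX480 had 66.3, 51.9 and 83.1 on the SA arrays, against 44.3, 78.4 and 116 on the silwet arrays. SA and silwet overlapped in both sets. The log2 difference was -0.31 ± 0.42 in set 2 and -0.15 ± 0.42 in set 3, and over both sets together -0.23 ± 0.30 (SE), with unadjusted p = 0.463, 0.728 and 0.445 and adjusted p of at least 0.99984 by limma.

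MSRB9 likewise overlapped between treatments outside set 1. Its signals in set 2 were 55.4, 71.2 and 116 with SA, against 85.2, 66.1 and 153 with silwet alone. In set 3 they were 73.4, 59.1 and 65.3 with SA, against 45.7, 88.1 and 108 with silwet alone. The log2 difference of MSRB9 was -0.26 ± 0.44 in set 2 and -0.18 ± 0.44 in set 3 (SE), and over both sets -0.22 ± 0.31 (unadjusted p = 0.487, limma adjusted p = 0.99996).

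MSRB5 had signals of 142, 170 and 97.8 with SA in set 2, against 141, 137 and 188 with silwet alone. In set 3 it had 214, 165 and 157 with SA, against 181, 130 and 120 with silwet alone. In set 3 each SA array exceeded the silwet array of its number, by 0.22, 0.32 and 0.35 on the log2 scale, although the groups overlapped. The pairs of set 2 differed by 0.01, 0.28 and -0.84. The difference was -0.18 ± 0.27 in set 2 and 0.30 ± 0.27 in set 3 (SE), and neither passed (unadjusted p = 0.501 and 0.283, limma adjusted p = 0.99998 and 0.99984). The mean over both sets was 0.06 ± 0.19 (adjusted p = 0.99996).

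These tests called 0% of all probe sets in set 2, in set 3 and in their mean. At an unadjusted p under 0.05 were 233, 187 and 110 of them, or 1.71%, 1.37% and 0.806% (limma). These shares are lower than a threshold of 0.05 gives by chance, in a fit that left out the pairs of arrays. With the 9 pairs as a block, 0 probe sets were called as well. Calling 0% does not show that SA had no effect in these sets. The number of arrays limits the precision of these tests. With a standard error of 0.42 for GRX480 and 0.44 for MSRB9, a moderate difference within 1 set could not have been separated from the spread between arrays. The difference of the SA effect between sets 3 and 2 was 0.17 ± 0.59 for GRX480, 0.07 ± 0.62 for MSRB9 and 0.48 ± 0.38 for MSRB5 (SE), with adjusted p = 0.968, 0.985 and 0.925 by limma. That contrast called 0% of probe sets, with 2.68% at an unadjusted p under 0.05. Set 3 minus set 2, averaged over both treatments, was -0.45 ± 0.30 for GRX480, -0.24 ± 0.31 for MSRB9 and 0.13 ± 0.19 for MSRB5 (limma adjusted p = 0.99984 each). This contrast also called 0%, with 499 probe sets, or 3.66%, at an unadjusted p under 0.05.

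Ordered by level, GRX480 on the log2 scale ran from 9.32 ± 0.71 in SA of set 1 through 7.04 ± 0.51 in silwet of set 2, 6.81 ± 0.71 in silwet of set 1, 6.72 ± 0.63 in SA of set 2 and 6.51 ± 0.57 in silwet of set 3 to 6.36 ± 0.27 in SA of set 3 (SD, n = 3 each). Below the first, each step was smaller than the spread between replicates. For MSRB9 the order was SA of set 1 (9.32 ± 0.71), silwet of set 1 (7.27 ± 0.99), silwet of set 2 (6.81 ± 0.54), SA of set 2 (6.55 ± 0.45), silwet of set 3 (6.53 ± 0.53) and SA of set 3 (6.35 ± 0.13). Here too only the first step exceeded the SD of both neighbours. MSRB5 ran in the other direction, from SA of set 3 (7.60 ± 0.22), silwet of set 2 (7.41 ± 0.23), silwet of set 1 (7.41 ± 0.39), silwet of set 3 (7.30 ± 0.29) and SA of set 2 (7.22 ± 0.36) down to SA of set 1 (5.99 ± 0.53), and only the last step exceeded the spread.

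GRX480 and MSRB9 moved together from array to array also in sets 2 and 3, where no SA difference was called. Over the 12 arrays of sets 2 and 3, Pearson's r of their log2 values was 0.945 (two-sided permutation test with 100000 draws, p = 3e-05, adjusted p = 1.8e-04 over 6 tests), and Spearman's rho was 0.853 (permutation p = 7.9e-04, adjusted p = 0.00237). Without the 2 arrays farthest from the median of GRX480, r was 0.878. Much of the shared range went with replicate number. Replicate 3 was the highest of its 3 arrays in 5 of 6 combinations of treatment and set for GRX480, in 4 of 6 for MSRB9 and in 1 of 6 for MSRB5, and in all 3 silwet sets for both GRX480 and MSRB9. After the mean of each replicate number had been removed, r was 0.902, after the mean of each treatment and set had been removed it was 0.950, and without replicate 3 it was 0.853. A single replicate number held too few of these arrays for a value of its own. Since these arrays share replicate numbers and pairs, r was also tested by exact permutation within replicate number (p = 2.9e-04, adjusted p = 0.00174 over 6 such tests) and by exact permutation of whole SA and silwet pairs (p = 0.00278, adjusted p = 0.00833). The first does not keep the pairs together and the second does not keep the replicate numbers. How common such an r was among other pairs of genes on these arrays was not examined.

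For MSRB5 no relation to either gene passed the test. Over the same 12 arrays, r was -0.417 with GRX480 and -0.299 with MSRB9 (permutation p = 0.178 and 0.342, adjusted p = 0.268 and 0.342), and rho was -0.420 and -0.315 (permutation p = 0.176 and 0.319, adjusted p = 0.268 and 0.342). Without the 2 arrays farthest from the median of the first gene, r was -0.643 with GRX480 and -0.534 with MSRB9, and after the mean of each replicate number had been removed it was -0.249 and -0.069. In the exact tests within replicate number p was 0.266 and 0.450 (adjusted p = 0.320 and 0.450), and with whole pairs exchanged 0.132 and 0.265 (adjusted p = 0.264 and 0.320). The array values are shared between these 3 relations.

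**Figure D3:**
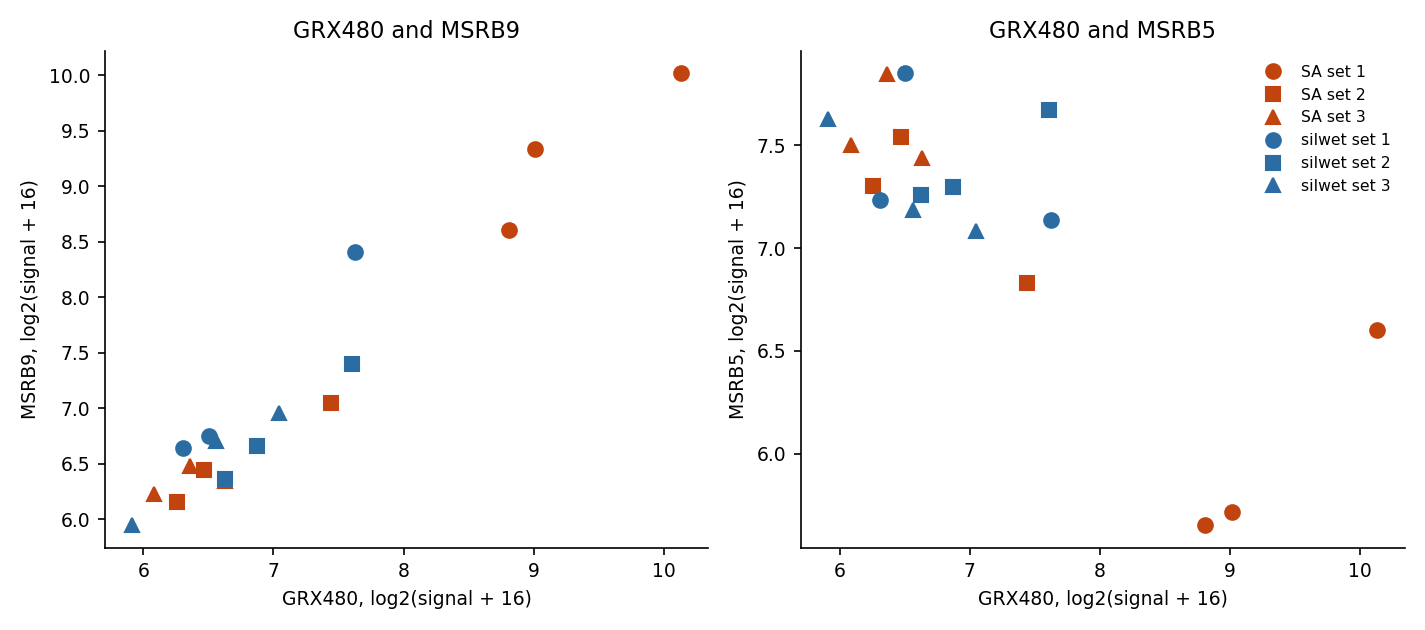
Log2(signal + 16) of MSRB9 (left) and MSRB5 (right) against GRX480 on 18 arrays, coloured by treatment and marked by serial set. MSRB9 follows GRX480 over the whole range, including the silwet arrays, while MSRB5 is low on the 3 SA arrays of set 1 and scattered on the others.

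A fit over all 18 arrays held the 6 combinations of treatment and set, with replicate number added. In it, replicate 3 minus the mean of replicates 1 and 2 was 0.65 ± 0.21 for GRX480, 0.67 ± 0.22 for MSRB9 and -0.26 ± 0.14 for MSRB5 (SE). These values are a description, since they contain set 1 and were looked at after replicate 3 had been seen to be high. Over all tested probe sets, 5.04% were called for this difference by limma, or 688, a count that ranged from 199 to 1056 with 1 array left out and was 2858 with array weights.

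The genes whose profile over the 18 arrays was most like that of GRX480 were AT3G21080, AT5G39670, AT4G29950, AT5G46230 and AT1G78410, with Pearson's r of 0.973, 0.968, 0.967, 0.965 and 0.962. Those most like MSRB9 were AT1G66090, AT2G32140, the calmodulin-like protein gene CML37, AT3G13950 and AT4G35110, with r of 0.972, 0.968, 0.965, 0.964 and 0.963. These values rest in part on the 3 SA arrays of set 1, in which all 10 of these genes were higher than in silwet, by up to 3.25 and 2.67 on the log2 scale. Over the other 15 arrays r was 0.799 to 0.892 for the first 5 and 0.840 to 0.910 for the second. GRX480 and MSRB9 had r of 0.867 over those 15 arrays. The 10 genes were picked for the highest r over arrays that include these 15, which raises their values. How common such values were among all probe sets was not examined.

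For MSRB5 the 5 most alike were AT3G02910, AT1G26920, AT2G29320, AT5G55210 and the cytochrome P450 gene CYP71B34, with r of 0.933, 0.922, 0.918, 0.916 and 0.916, and of 0.564 to 0.743 over the 15 arrays. Their set 1 differences lay between -1.47 and -0.56. The correlations are a description, since the arrays share their scaling and replicate numbers.

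In RefSeq's gene table MSRB5 lies in a run with MSRB3, MSRB4 and MSRB6, and MSRB9 in another run with MSRB7, MSRB8 and MSRB2. Whether the probes of one also read the transcript of another was not tested. Of 14 reductases on the list, 5 were named and all 5 tested, which leaves MSRB3, MSRB6 and the A-type MSRA5 beside the members. None of the 3 was called in set 1 by the unblocked fit, which called 12.8% of all probe sets. With 3 genes, the count cannot be told apart from that share.

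MSRB6, next but one to MSRB5, had signals of 153, 117 and 98.4 with SA in set 1, against 226, 203 and 199 with silwet alone. The groups did not overlap, but the share of all probe sets without overlap was not counted. The log2 difference of MSRB6 was -0.72 ± 0.34 (SE, limma adjusted p = 0.183). The same difference passed once the 9 pairs of same-numbered arrays entered as a block (adjusted p = 0.0118), in a fit that called 27.9% of all probe sets. It also passed with array weights and without SA replicate 1 of set 3 (limma adjusted p = 0.0255 and 0.0359). In the other 24 alternatives it did not pass. In sets 2 and 3 MSRB6 was at -0.29 ± 0.34 and 0.12 ± 0.34.

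MSRB3, from the same run of genes, had signals of 200, 167 and 164 with SA in set 1, against 158, 135 and 133 with silwet alone. Each SA array exceeded its pair, but the difference of 0.28 ± 0.18 did not pass with or without pairs (adjusted p = 0.206 and 0.332). MSRA5 was at 0.27 ± 0.23 (adjusted p = 0.496). The medians of these 3 reductases were 0.27, -0.29 and 0.05 in sets 1, 2 and 3, beside -0.11, 0.01 and -0.01 over all tested probe sets.

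Of 11 glutaredoxins on the list, 5 were named. ROXY1 and ROXY2, CC-type relatives of GRX480 known from flower development, were too dim to be tested, with signals of 1.44 to 17.9 and 1.48 to 18.5. GRXC1, a glutaredoxin of another class, had signals of 134, 88.1 and 106 with SA in set 1, against 90.8, 59.9 and 53.9 with silwet alone. The groups overlapped by 1 array, and the difference was 0.59 ± 0.22 (SE, limma adjusted p = 0.0886, and 0.0205 in the fit blocked by pair). GRXC1 also passed with replicate number as a block (adjusted p = 0.0387) and with array weights (0.0185). Without silwet replicate 1 of set 1 it passed too (0.0460), and in the other 23 alternatives it did not. GRXC2 was at 0.13 ± 0.17 (adjusted p = 0.692), with signals of 839 to 1165 in SA and 694 to 1020 in silwet.

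**Figure D4:**
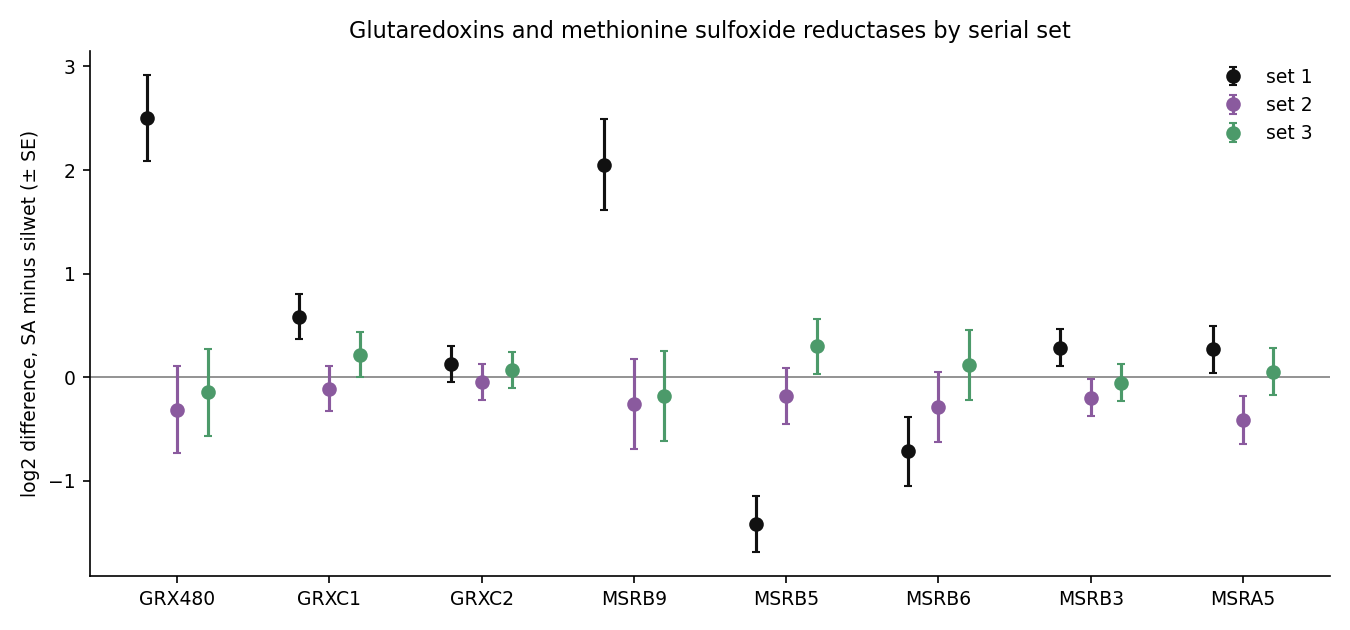
Log2 difference, SA minus silwet, with its SE, for the 3 tested glutaredoxins and the 5 tested methionine sulfoxide reductases in serial sets 1 (black), 2 (purple) and 3 (green). GRX480 and MSRB9 lie near 2.50 and 2.05 and MSRB5 near -1.42 in set 1, and all 8 genes lie between -0.41 and 0.30 in sets 2 and 3.

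Thioredoxins, which recharge most methionine sulfoxide reductases, had 6 of 24 listed genes named and tested, of which 1 rose and none fell in set 1, where 6.8% of all probe sets rose and 6.04% fell. TY1, a plastid thioredoxin, rose by 0.53 ± 0.17 (SE, limma adjusted p = 0.0444), with signals of 66.4, 52.3 and 47.7 with SA, against 41.4, 30.9 and 28.2 with silwet alone. The call did not survive the removal of 1 array in 12 of 18 cases (adjusted p up to 0.165), nor 4 other settings (up to 0.0754). NTRC, the plastid thioredoxin reductase, and ty2, another plastid thioredoxin, were at -0.46 ± 0.20 and -0.50 ± 0.29 (adjusted p = 0.163 and 0.284). In the fit blocked by pair their adjusted p was 0.0162 and 0.0353. TO1, of mitochondria, was at -0.18 ± 0.15 (adjusted p = 0.479). The median of the 6 was -0.19.

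Of 44 listed enzymes of peroxide removal and of the ascorbate and glutathione pools, 6 were named and tested, and 1 fell in set 1, where 6.04% of all probe sets did. VTC4, a phosphatase of ascorbate synthesis, had signals of 133, 172 and 115 with SA, against 247, 255 and 223 with silwet alone. These groups did not overlap, but the share of all probe sets without overlap was not counted. VTC4 fell by 0.74 on the log2 scale (SE 0.20, limma adjusted p = 0.0207). That call was lost without silwet replicate 1 or 2 or without SA replicate 1 or 3 of set 1 (adjusted p = 0.0560, 0.0730, 0.0598 and 0.100). GR, a glutathione reductase, PRXIIF, a mitochondrial peroxiredoxin, and TAPX, the thylakoid ascorbate peroxidase, were at -0.33 ± 0.25, 0.22 ± 0.19 and -0.25 ± 0.27 and did not pass (adjusted p = 0.449, 0.496 and 0.611). The median of the 6 was -0.16.

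None of 15 TGA factors and NPR1 partners was named. Of 6 jasmonate and ethylene targets that GRX480 is known to repress or that belong to the same response, 2 were named. PDF1.2 had signals of 25.0, 16.1 and 64.03 with SA in set 1, against 35.2, 75.6 and 56.3 with silwet alone, and PDF1.2b had 13.6, 21.5 and 51.0 against 24.7, 77.1 and 59.7. Both groups overlapped, at -0.56 ± 0.60 and -0.65 ± 0.56 (adjusted p = 0.596 and 0.502).

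None of the tested glutaredoxins, reductases, thioredoxins and antioxidant enzymes outside the members had an SA effect in set 1 that differed from its average effect in the other sets by the unblocked fit, in which 7.94% of all probe sets did. With the 9 pairs as a block, NTRC at -0.58 (adjusted p = 0.0179), TY1 at 0.52 (adjusted p = 0.0310) and VTC4 at -0.65 (adjusted p = 0.0467) did, beside 21.9% of all probe sets in that fit. For the members themselves that difference was 2.74 ± 0.51 for GRX480, 2.27 ± 0.53 for MSRB9 and -1.47 ± 0.33 for MSRB5 (SE), which is a description, since it contains the values that chose them.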

How the data were processed

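The deposited table holds 1 linear intensity per probe set and array, the MAS5 signal per the submitters' processing notes (no version). Scaling by the authors is visible in the values, whose 2% trimmed mean was 100.01 on all arrays. No genome build was used. No 2 arrays held identical values.

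Signals were transformed as log2(signal + 16). Of 22746 Arabidopsis probe sets, the upper 60% by mean, 13648 in all, were tested with limma 3.58.1 in R 4.3.3 (lmFit, eBayes with a mean-variance trend). One fit held 6 cells of treatment by serial set, with 12 residual degrees of freedom. P-values are two-sided and Benjamini-Hochberg adjusted over all tested probe sets, with a threshold of 0.05. Permutation tests used scipy 1.17.1 and numpy 2.4.6, and those within replicate number or of whole pairs were added after seeing the data. The fits were tested on simulated data.

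Replicate numbers in the titles paired SA with silwet arrays within a set, and deviations from the cell means correlated in every pair (r from 0.129 to 0.770 over 9 pairs), so the pairs served as a block in an alternative fit. Alternatives also covered pseudocount, filter, scaling, array weights and each array left out.

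Gene names came from the array's probe table and were updated with RefSeq's TAIR10.1 table, used only for names and neighbours. Every tested gene of the reductase and glutaredoxin lists was named, and of the other lists up to 4 with the smallest p in set 1. For each member the 5 genes with the highest correlation were named. Members and lists were chosen with earlier results of these data known. Promoter motifs were not analysed here.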

Additional observations from a re-analysis of the deposited data

Results flagged for a closer look

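Among the 18 genes with values above, each looked at within SA and within silwet, 2 of 36 groups of 9 arrays had 1 array far from the others, and chance flags about 1 group in 20. GR had a signal of 201 on SA replicate 1 of set 1, against 357 to 513 on the other 8 SA arrays. GRXC2 had 1165 on the same array, against 839 to 991 on the others. This is also the array with the highest GRX480 and MSRB9 signals, at 1105 and 1021. Without it, the set 1 difference was 0.0052 for GR and -0.00083 for GRXC2 (limma adjusted p = 0.994 and 0.999), 2.098 for GRX480 and 1.71 for MSRB9. That fit left out the pairs and kept the silwet array of the same number. This silwet array had the lowest GR signal of the 9 silwet arrays, at 300, and the highest GRXC2 signal of its set, at 1020. In the remaining pairs of set 1, GR differed by -0.29 and -0.15 and GRXC2 by 0.27 and -0.08.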

How the results depend on the processing

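The set 1 differences of the 3 members, on which they were taken to be chosen, kept their direction under all 27 alternatives. Leaving out an array of sets 2 or 3, or adding a block, could not change them. The count is therefore a description and not evidence. Over 9 settings GRX480 ranged from 2.08 to 2.69, MSRB9 from 1.71 to 2.19 and MSRB5 from -1.69 to -0.955, the last with a pseudocount of 64. With arrays left out in turn, MSRB9 ranged from 1.71 to 2.62. Outside set 1 no alternative called an SA difference of a member, nor its change between sets 3 and 2. Of these 324 values, 13 changed sign. The lowest limma adjusted p was 0.701 for an SA difference and 0.395 for the change between sets, both for MSRB5. With arrays left out, GRX480 in set 3 ranged from -0.44 to 0.12, MSRB5 in set 2 from -0.34 to 0.013 and in the mean of both sets from -0.022 to 0.16, MSRB9 in set 2 from -0.50 to 0.041 and in set 3 from -0.48 to 0.029. The difference between sets 3 and 2 in the SA effect ranged from -0.13 to 0.52 for GRX480 and from -0.22 to 0.32 for MSRB9, and with array weights was -0.17 for MSRB9. Set 3 minus set 2 of MSRB5 was -0.017 with array weights. GRXC2 in set 1 ranged from -0.048 to 0.23 and GR from -0.55 to 0.0052 with arrays left out. The set 1 count of 1753 probe sets was 2879 with array weights, 3814 with the 9 pairs as replicate block and 953 to 2126 with arrays left out. Set 3 minus set 2 called 1 probe set with a pseudocount of 1. The replicate 3 count of 688 was 2858 with array weights and 199 to 1056 with arrays left out. The cause of these changes was not tested. With the pairs as a block, no call of a member outside set 1 changed.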
